A study of Mus musculus with 58 samples.

Results

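The difference between Tanc2 heterozygous (HT) and wild-type (WT) mice was measured within the lithium arm of a study of early drug treatment. The members were the 19 lithium libraries of 58 in all, 9 labelled HT (5 females and 4 males) and 10 labelled WT (5 females and 5 males), and the 17925 of 18088 genes with a normalized count of at least 10 in at least 4 libraries. All mice were C57BL/6J. Lithium reached the pups in the milk of treated mothers from postnatal day 3 to day 24, and prefrontal cortex was taken at day 25 for strand-specific sequencing of polyadenylated RNA. The vehicle arm (19 libraries) and the fluoxetine arm (20 libraries), of the same ages, tissue, strain and both genotypes, were used only to ask where the lithium arm differed. The labels give neither the altered part of Tanc2 nor the litters, so p-values treat each mouse as independent.

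Tanc2 encodes a large scaffold protein with ankyrin and tetratricopeptide repeats that sits at excitatory synapses, where it binds PSD-95 and other scaffolds, and it has been described as an inhibitor of the growth kinase mTOR. Lithium, a mood stabiliser, inhibits the kinase GSK3 and enzymes that recycle inositol phosphates. GSK3 marks beta-catenin for destruction in the WNT pathway and holds glycogen synthase inactive, so these pathways are the usual places to look for a lithium response.

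The lithium libraries held between 24210000 and 30180000 recovered reads (median 26050000). Among the 171 pairs of these libraries every pair differed by more than the sampling noise of reads (smallest chi-square divided by its degrees of freedom, 4.42), and the sex labels of 10 females and 9 males matched Xist and Ddx3y. Slc17a7, the vesicular glutamate transporter of cortical excitatory neurons, lay between 44500 and 56490 normalized counts in every library. The pseudogene Gm10221 had reads in all 19.

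Tanc2 itself was not lower in the HT-labelled mice. Its normalized count (reads divided by a size factor of the library) ran from 6240 to 9106 in HT with a median of 8220, and from 6904 to 8024 in WT with a median of 7427. The ranges overlapped, with 5 of 9 HT libraries above every WT library and 1 below every WT library. Means were 7953 ± 853 (SD, n = 9) and 7468 ± 355 (SD, n = 10), a log2 difference, HT minus WT, of 0.089 ± 0.044 (SE; limma adjusted p = 0.436). Under vehicle and fluoxetine the same difference was 0.10 ± 0.044 and 0.099 ± 0.042. Since the altered part of the gene is not known here, this value does not check the genotype labels.

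No gene passed an adjusted p of 0.05 between HT and WT lithium mice when females and males were weighed equally (limma, 0 of 17925 genes, 0%, with 0% higher and 0% lower). At an unadjusted p under 0.05 there were 2006 genes, 11.2% of those tested, of which 1084 (6.05%) lay higher and 922 (5.14%) lower in HT. The smallest adjusted p was 0.0697, shared by 8 genes. That fit draws its spread from all libraries. Fitted to the lithium libraries alone, limma called 0 genes, with 1562 unadjusted and a smallest adjusted p of 0.484. EdgeR on the recovered reads called 0 genes (1969 unadjusted, smallest adjusted p = 0.0863) and DESeq2 called 14, with 11 higher and 3 lower. A filter at a mean of 50 normalized counts, which tested fewer genes, called 8, with 6 higher and 2 lower, by limma. No gene had HT and WT libraries without overlap (0% above and 0% below).

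Single mice decided whether any gene was called. Without WT lithium male 1 the count was 81 (48 higher and 33 lower), without HT lithium male 4 it was 40, and without WT lithium female 1 it was 19. It was 5 without HT lithium male 1, 2 without HT lithium female 2, 2 without WT lithium male 2 and 1 without WT lithium male 4. Leaving out any other lithium library gave 0 by limma.

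**Figure D1:**
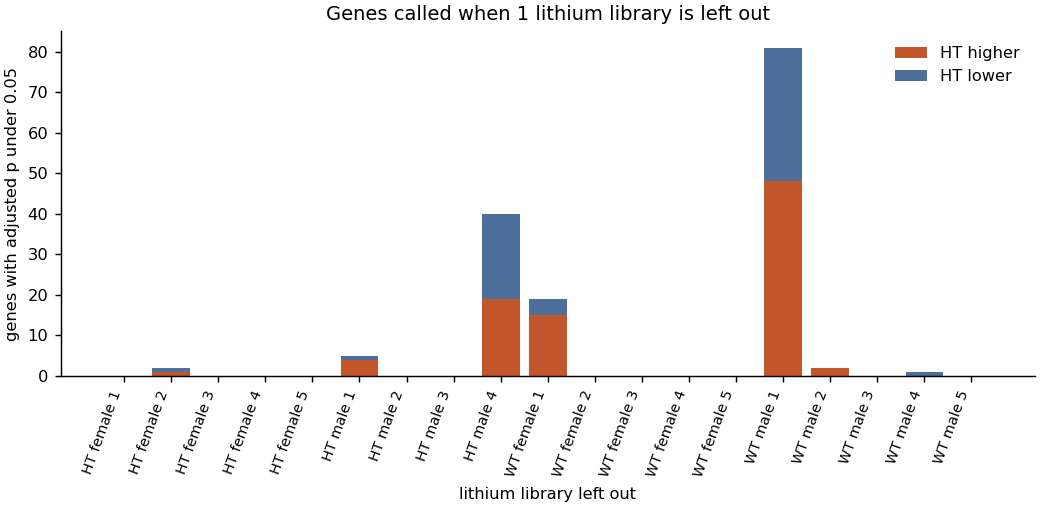
Number of genes with a limma adjusted p under 0.05 between HT and WT lithium mice (vertical axis, genes) after leaving out the lithium library named on the horizontal axis, with genes higher in HT in orange and lower in blue. The bar for WT male 1 reaches 81 genes, that for HT male 4 reaches 40, and 12 of the 19 bars are at 0.

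The direction of the genotype difference followed the base composition of the transcripts. Among 13678 genes with a mean of at least 50 normalized counts, the Spearman correlation between the log2 difference and the transcripts' GC content was -0.43, and with transcript length it was -0.09; these describe genes that share the same libraries. In 5 equal bins of genes from low to high GC content the median log2 difference was 0.051, 0.021, -0.003, -0.023 and -0.044. In bin 1 (GC of 29.3% to 45.1%) 18.2% of genes lay higher in HT and 0.585% lower at an unadjusted p under 0.05, whereas in bin 5 (56.1% to 75.6%) 0.658% lay higher and 13.3% lower. The order of the bins was the same in females (0.052 in bin 1 to -0.059 in bin 5) and in males (0.046 to -0.029).

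Neither of the other drug arms had such a gradient. The bin medians ran from -0.007 to 0.004 for HT minus WT under vehicle and from -0.004 to 0.009 under fluoxetine. Each library was given a GC tilt, the median log2 deviation of genes in bin 5 from their lithium mean minus that of genes in bin 1. The tilt ran from -0.172 to 0.233 in HT libraries (median -0.095) and from -0.116 to 0.161 in WT libraries (median 0.084). The groups overlapped: HT lithium female 4 had the highest tilt of all, the other 8 HT libraries lay at or below 0.018, and among WT males 3 of 5 lay below 0. Taken instead from the mean of all 58 libraries, the median tilt was 0.115 in WT lithium and -0.068 in HT lithium. It was -0.02 and -0.026 in WT and HT vehicle, and -0.058 and -0.009 in WT and HT fluoxetine. By sex it was 0.131 in WT lithium females, -0.037 in WT lithium males, 0.019 in HT lithium females and -0.07 in HT lithium males. Once the trends on GC content and length were taken out of each library, the bin medians lay between -0.004 and -0.001, limma called 0 genes, and 1398 genes had an unadjusted p under 0.05 in place of 2006. Whether this gradient arose in the tissue or in the preparation of the libraries was not tested.

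**Figure D2:**
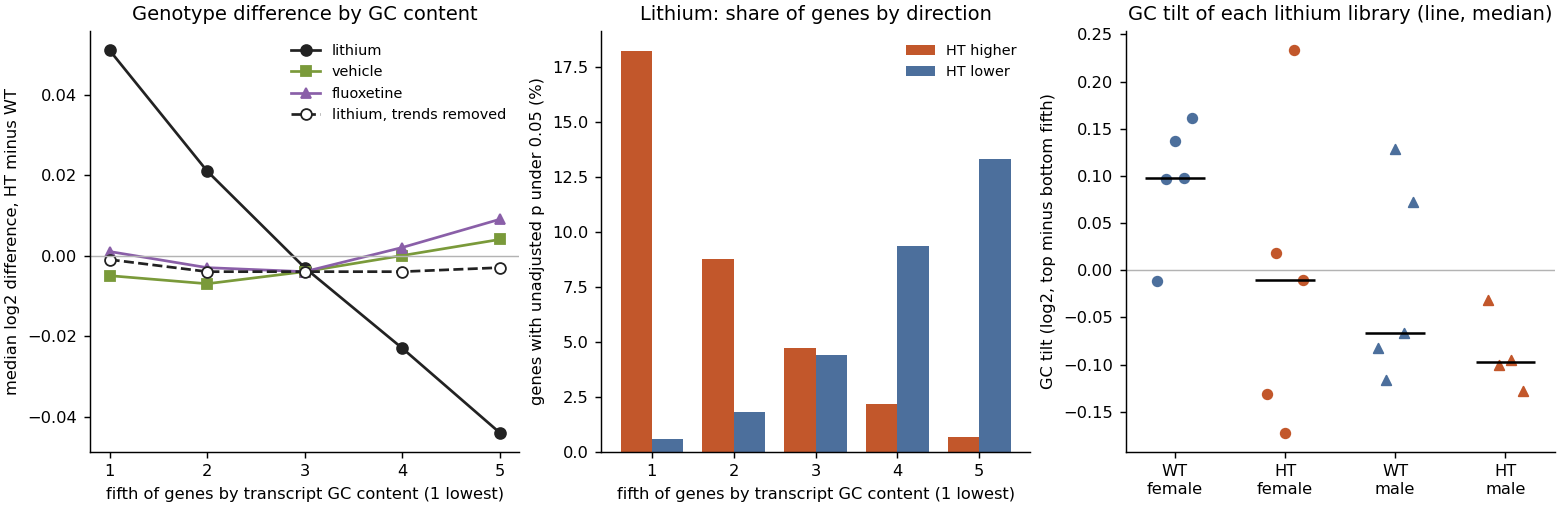
Left, median log2 difference between HT and WT (vertical axis) for genes binned by transcript GC content (horizontal axis, 1 lowest to 5 highest) under lithium, vehicle and fluoxetine, and under lithium with trends removed. Middle, percentage of genes in each bin with an unadjusted p under 0.05 under lithium, by direction. Right, GC tilt of each lithium library (log2, circles for females and triangles for males) with the group median as a line. The lithium line falls from 0.051 to -0.044 while the others stay within 0.009 of 0.

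Stretches of coding sequence show the contrast in letters. For 2 genes of low GC content among the 10 with the smallest p that lay higher in HT, and 2 of high GC content among the 10 that lay lower, the middle 150 coding bases of the GENCODE transcript were taken from GRCm38, with G and C in capitals. The Slf1 stretch (minus strand, coding positions 1507 to 1656, spliced from within chr13:77083603-77090321) has 34.7% G and C. The Ssb stretch (plus strand, from within chr2:69867545-69869909) has 37.3%. The Rasip1 stretch (plus strand, chr7:45632440-45632589) has 68.0%, and that of Slc39a13 (minus strand, from within chr2:91064945-91065668) has 63.3%. Each stretch is more extreme than its whole coding sequence, which has 38.2% for Slf1, 39.1% for Ssb, 64.8% for Rasip1 and 59.8% for Slc39a13.
Slf1: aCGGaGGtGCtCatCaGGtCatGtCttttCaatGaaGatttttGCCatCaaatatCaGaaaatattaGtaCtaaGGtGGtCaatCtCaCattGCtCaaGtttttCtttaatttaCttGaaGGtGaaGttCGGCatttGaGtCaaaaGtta
Ssb: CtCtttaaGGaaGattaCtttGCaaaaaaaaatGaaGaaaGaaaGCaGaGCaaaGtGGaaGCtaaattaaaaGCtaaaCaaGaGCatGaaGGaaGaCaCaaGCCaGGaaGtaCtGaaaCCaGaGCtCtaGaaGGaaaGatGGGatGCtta
Rasip1: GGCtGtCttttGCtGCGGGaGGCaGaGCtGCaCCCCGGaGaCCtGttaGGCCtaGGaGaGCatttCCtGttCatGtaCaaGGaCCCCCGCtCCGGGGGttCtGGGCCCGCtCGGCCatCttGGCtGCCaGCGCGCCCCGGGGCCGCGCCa
Slc39a13: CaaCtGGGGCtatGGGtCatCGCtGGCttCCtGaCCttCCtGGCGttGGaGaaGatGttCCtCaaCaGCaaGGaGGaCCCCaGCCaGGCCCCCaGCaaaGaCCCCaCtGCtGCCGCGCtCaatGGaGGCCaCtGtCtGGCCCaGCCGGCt
The 10 genes with the smallest p that lay higher had transcripts of 34.3% to 54.5% GC (median 41.3%), and the 10 that lay lower had 49.3% to 63.6% (median 55.65%), beside a median of 50.6% over all genes measured at that level.

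The 10 named genes that lay higher in HT lithium mice did not pass by limma in the fit described above. These genes and the lower ones below were picked for the smallest p on the same libraries. Counts of their HT libraries on 1 side of WT are therefore no separate support, and such counts were not made over all genes. DESeq2 called 8 of them, Haus2, Npm1, Spata33, Fam204a, Eif3e, Slf1, Dars and Ssb, and limma at a mean of at least 50 called 6, Haus2, Npm1, Spata33, Fam204a, Slf1 and Znf41-ps. Haus2, a subunit of the augmin complex that branches microtubules, had the smallest p of all named genes. Its normalized count ran from 765 to 1014 in HT (median 857) and from 634 to 828 in WT (median 727). Of the HT libraries 6 of 9 lay above every WT library, and 9 of 9 lay above the WT mean of their sex, with a log2 difference of 0.25 ± 0.05 (SE; limma adjusted p = 0.0697). With GC and length trends removed it was 0.21 (limma adjusted p = 0.439), and over all alternatives other than leaving out a library the adjusted p ran from 0.00972 to 0.782.

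Slf1, whose product brings the SMC5/6 complex to sites of DNA damage, ran from 492 to 557 normalized counts in HT (median 518) and from 426 to 548 in WT (median 446). WT lithium male 1 held the 548, and the other 9 WT libraries reached no more than 468, below every HT library. The log2 difference was 0.19 ± 0.04 (limma adjusted p = 0.0697). With the trends removed it was 0.098 (limma adjusted p = 0.567, in a range of 0.032 to 0.92 over alternatives). Its transcripts, at 37.7% GC, were among the poorest in G and C of the named genes.

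Npm1 encodes nucleophosmin, a chaperone of the nucleolus that takes part in ribosome assembly, and has retroposed copies that can share its reads. It ran from 3180 to 3685 normalized counts in HT (median 3371) and from 2811 to 3524 in WT (median 3048), with 2 of 9 HT libraries above every WT library. The log2 difference was 0.16 ± 0.034 (limma adjusted p = 0.0697) and 0.091 with the trends removed. Ssb, the La protein that binds the ends of new RNA polymerase III transcripts, ran from 3182 to 3553 in HT (median 3473) and from 2794 to 3412 in WT (median 3124), and 7 of 9 HT libraries lay above every WT library. Its log2 difference of 0.15 ± 0.035 (limma adjusted p = 0.102) was 0.061 with the trends removed.

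Eif3e, a subunit of a translation initiation factor, and Dars, the aspartyl-tRNA synthetase, lay higher by 0.18 ± 0.04 and 0.18 ± 0.042 (limma adjusted p = 0.0943 and 0.102). In both genes 9 of 9 HT libraries lay above the WT mean of their sex. Fam204a, at 353 to 414 normalized counts in HT (median 393) and 286 to 377 in WT (median 331), differed by 0.21 ± 0.045 (limma adjusted p = 0.0697). Znf41-ps, an unprocessed pseudogene of a zinc-finger gene whose reads may belong to related genes and which is therefore uncertain, had the largest log2 difference of these 10 genes, 0.47 ± 0.10, with HT at 178 to 241 and WT at 106 to 213. Spata33 and Gorab complete the 10 and are described with the females. With the trends removed Haus2, Spata33, Znf41-ps, Fam204a and Gorab kept at least 0.167 of log2 difference, while Slf1, Npm1, Eif3e, Dars and Ssb lay between 0.061 and 0.128.

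The 10 named genes that lay lower in HT lithium mice did not pass by limma in that fit either. DESeq2 called Gys1, Sorbs3 and Zfp366, and limma at a mean of at least 50 called Ccnf and Gys1. Ccnf, which encodes cyclin F, a substrate receptor of an SCF ubiquitin ligase, ran from 119 to 178 normalized counts in HT (median 141) and from 131 to 216 in WT (median 198). The ranges overlapped: WT lithium males 4, 1 and 2 stood at 131, 164 and 178, while all WT females lay above every HT library, at 196.5 or more. The log2 difference was -0.35 ± 0.08 (limma adjusted p = 0.0697), and -0.346 with the trends removed (limma adjusted p = 0.173, in a range of 0.0468 to 0.5 over alternatives).

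Gys1, the glycogen synthase of muscle and brain and a classical substrate of GSK3, ran from 393 to 497 normalized counts in HT (median 447) and from 453 to 569 in WT (median 504). Of the HT libraries 5 of 9 lay below every WT library and 9 of 9 below the WT mean of their sex. The log2 difference was -0.19 ± 0.041 (limma adjusted p = 0.0697), and it was -0.19 in females and -0.19 in males. Gpt, an alanine aminotransferase that links amino acids to pyruvate, ran from 149 to 213 in HT (median 177) and from 174 to 291 in WT (median 243). It differed by -0.35 ± 0.089 (limma adjusted p = 0.139), and 4 of 9 HT libraries lay below every WT library.

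Slc41a1, a magnesium transporter, ran from 1495 to 1956 normalized counts in HT (median 1719) and from 1764 to 2030 in WT (median 1831), with 7 of 9 HT libraries below every WT library. Slc39a13, a zinc transporter, differed by -0.15 ± 0.034 (limma adjusted p = 0.0943), and Tpcn1, a cation channel of endosomes and lysosomes, by -0.17 ± 0.044 (limma adjusted p = 0.139). Slc41a1 differed by -0.13 ± 0.033 (limma adjusted p = 0.139). Slc39a13, Tpcn1 and Slc41a1 stood at -0.115, -0.136 and -0.12 with the trends removed.

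The remaining lower genes were Zfp366, a zinc-finger corepressor of nuclear receptors (-0.40 ± 0.095, limma adjusted p = 0.119), Sorbs3, the adaptor vinexin of cell adhesions (-0.305 ± 0.072, limma adjusted p = 0.119), Mest, an imprinted gene expressed from the paternal allele (-0.26 ± 0.063, limma adjusted p = 0.138), and Rasip1. Rasip1, an endothelial protein needed for vessel lumens, ran from 180 to 248 normalized counts in HT (median 212) and from 216 to 273 in WT (median 252). Of its HT libraries 5 of 9 lay below every WT library, and its log2 difference was -0.27 ± 0.067 (limma adjusted p = 0.138). Zfp366 ran from 131 to 315 in HT and from 234 to 360 in WT, so that its lowest HT library stood far from its highest. For each of Zfp366, Sorbs3 and Rasip1 all 9 HT libraries lay below the WT mean of their sex, in values on which these genes were picked.

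**Figure D3:**
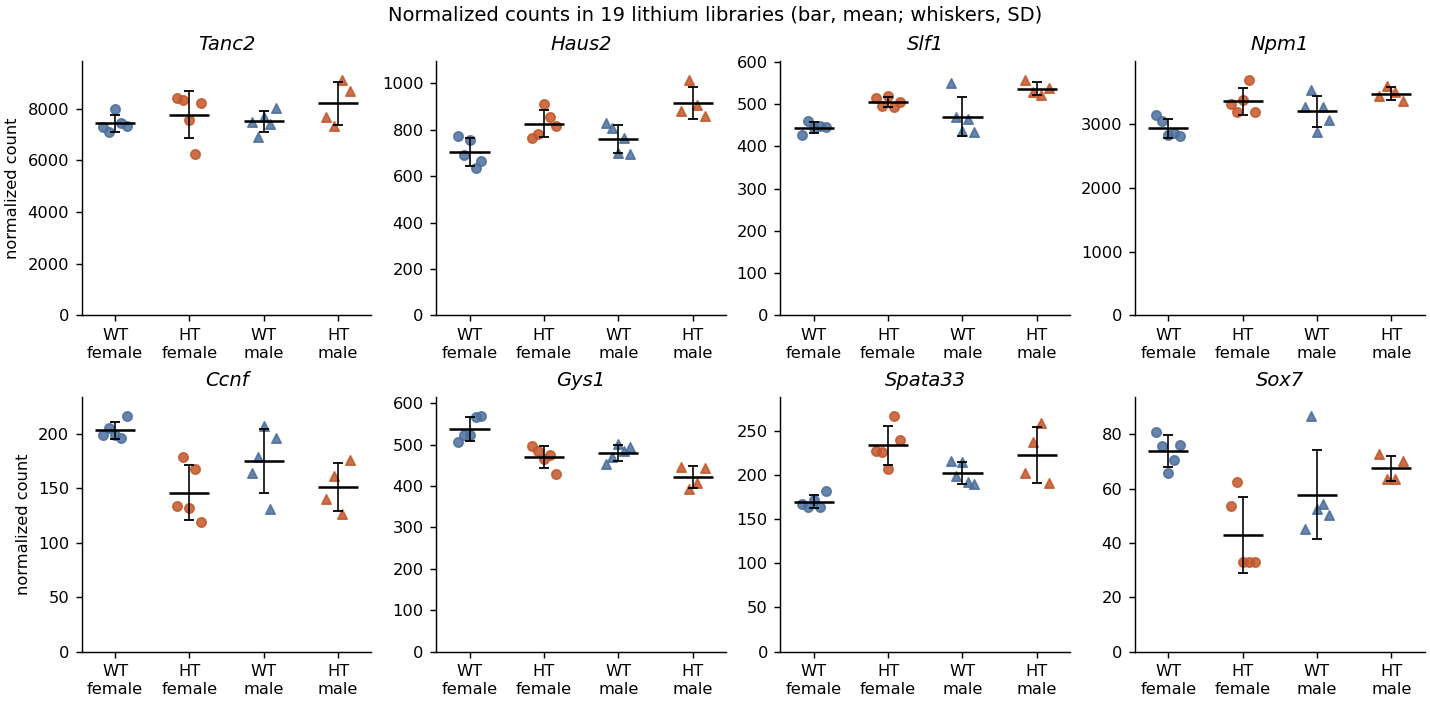
Normalized count (vertical axis, starting at 0) of 8 genes in each of the 19 lithium libraries, by genotype and sex (horizontal axis), with group means as bars and SD as whiskers. Tanc2 overlaps between genotypes, Haus2, Slf1 and Npm1 lie higher and Ccnf and Gys1 lower in HT. In females Spata33 lies higher and Sox7 lower in HT, and in males both overlap between genotypes.

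In females alone 3 genes passed by limma, 0.0167% of those tested, 2 higher (0.0112%) and 1 lower (0.00558%). Unadjusted, 2005 genes (11.2%) had a p under 0.05, with 5.86% higher and 5.33% lower. Spata33, a protein best known from sperm, where it anchors calcineurin, rose from 170 ± 7.5 normalized counts in WT females (SD, n = 5) to 233 ± 22 in HT females (n = 5). HT females ran from 207 to 267 and WT females from 164 to 182, and the log2 difference was 0.45 ± 0.083 (limma adjusted p = 0.0235). Gorab, a protein of the Golgi apparatus, rose by 0.34 ± 0.068 (limma adjusted p = 0.0438), with HT females at 293 to 350 and WT females at 214 to 288. Sox7, a transcription factor of blood vessel endothelium, fell by 0.82 ± 0.157 (limma adjusted p = 0.0329). Its HT females ran from 33.0 to 62.3 normalized counts and its WT females from 65.6 to 81.0. These 3 genes were picked on the same female values, so their ranges are no separate support.

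In males limma called 0 genes (0%), and 816 (4.55%) had an unadjusted p under 0.05, while edgeR called 0 and DESeq2 4. Spata33 differed by 0.13 ± 0.088 in males, Gorab by 0.088 ± 0.072 and Sox7 by 0.256 ± 0.167, the latter in the direction opposite to females. Sox7 in WT males ran from 45.2 to 54.3 in 4 libraries and stood at 86.7 in WT male 2, and HT males ran from 63.4 to 72.6. The female calls rested on few mice: edgeR called 1 gene and DESeq2 10, and limma called 0 without HT lithium female 4, 0 without HT lithium female 5, 0 without WT lithium female 2 and 0 without WT lithium female 4. It called 1 gene without HT lithium female 3, WT lithium female 1 or WT lithium female 5, but 7 without HT lithium female 1 and 5 without HT lithium male 3. With the trends removed limma called 1 gene, which lay higher, and 0 lower (smallest adjusted p = 0.00787). The 1 gene called by edgeR also lay higher, so Sox7 passed in neither.

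Whether the genotype difference itself differed between the sexes was tested as an interaction, in which limma called 0 genes (0%) and 688 (3.84%) had an unadjusted p under 0.05. EdgeR called 0 and DESeq2 6. Sox7 had the smallest p, with females minus males at -1.07 ± 0.229 (limma adjusted p = 0.39). Foxf2, a transcription factor of pericytes, was at -0.73 ± 0.20 and Prkd2, a protein kinase of the secretory pathway, at -0.69 ± 0.19. Polr3e, an RNA polymerase III subunit, stood at 0.25 ± 0.066 and Zfp511, a zinc-finger gene, at 0.315 ± 0.087, all 4 with a limma adjusted p of 1.0. Without HT lithium female 2, or without WT lithium male 2, 1 gene was called, lower in each case.

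The lithium arm was then set against the same genotype difference under the other drugs. HT and WT mice differed in 0 genes by limma under vehicle (0%), with 814 (4.54%) unadjusted, and in 0 under fluoxetine (0%), with 1114 (6.21%). As an interaction, the difference under lithium minus that under vehicle gave 0 genes by limma (0%) and 1196 (6.67%) unadjusted. EdgeR called 0 and DESeq2 4. The smallest p was that of Cbx7, a Polycomb protein, whose interaction was -0.255 ± 0.052 (limma adjusted p = 0.193). Cbx7 was at -0.12 ± 0.037 under lithium and 0.14 ± 0.037 under vehicle, with 749 to 888 normalized counts in HT lithium mice and 841 to 965 in WT. Gng10, a G protein gamma subunit, had an interaction of 0.368 ± 0.092, Haus2 of 0.28 ± 0.069, Farp1, which acts in the growth of dendrites, of -0.17 ± 0.041, and Ptpra, a receptor phosphatase, of 0.14 ± 0.034 (limma adjusted p = 0.442 each).

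The comparison with fluoxetine uses the same lithium libraries. Lithium minus fluoxetine gave 0 genes by limma (0%) and 1567 (8.74%) unadjusted, with edgeR at 0 and DESeq2 at 3. Ccnf (-0.515 ± 0.105), Slf1 (0.267 ± 0.056), Rasip1 (-0.42 ± 0.094), Ier5 (-0.51 ± 0.117), an early gene of stimulated cells, and Zscan18 (0.243 ± 0.056), a zinc-finger gene, had the smallest p (limma adjusted p = 0.143 each). Without HT lithium female 2, WT lithium male 1 or WT lithium male 4 limma called 1 gene. Of the 20 genes with the smallest p under lithium, none differed by as much in the same direction under vehicle or fluoxetine, but they were chosen on the lithium values. Mest stood at -0.15 ± 0.063 under vehicle, and Spata33 at 0.115 ± 0.06.

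**Figure D4:**
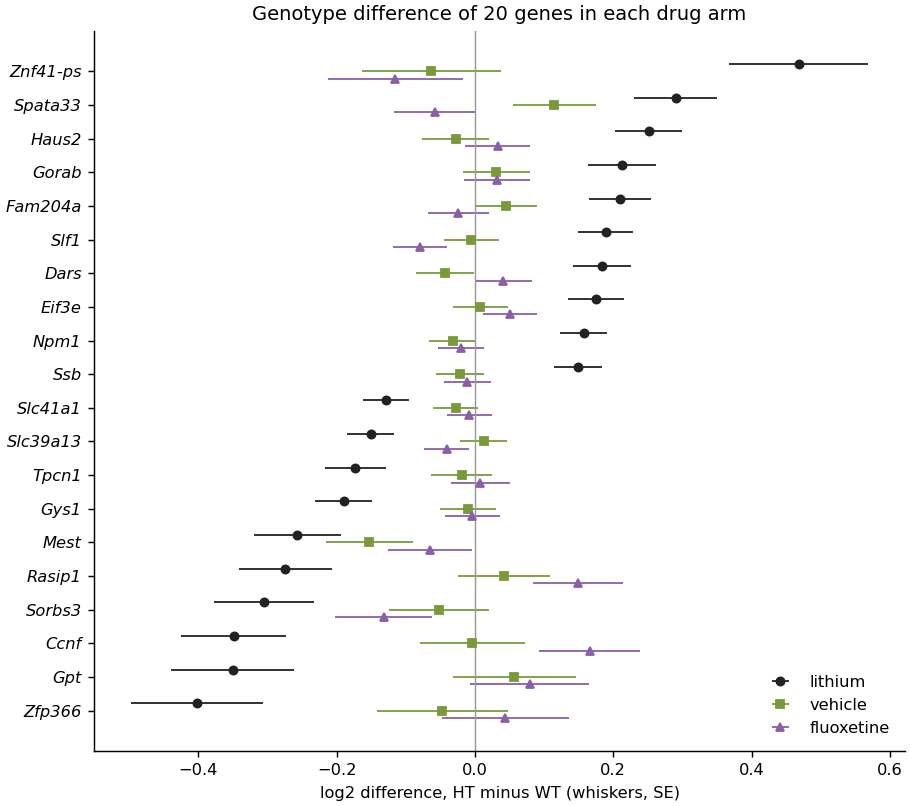
Log2 difference, HT minus WT (horizontal axis, whiskers give the SE), of the 20 genes named above as higher or lower under lithium (vertical axis, by symbol), in the lithium, vehicle and fluoxetine arms. The genes were chosen on the lithium values, which run from -0.402 for Zfp366 to 0.468 for Znf41-ps; the other arms lie nearer 0.

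Gene lists were described by their counts and medians, beside all genes, of which 50.6% lay above and 49.4% below 0 with a median of 0.00137. No member of any of the 32 lists passed by limma. For the synaptic scaffolds and kinases around Tanc2 (20 genes) 5 lay higher and 15 lower, with a median of -0.061 (-0.031 with the trends removed, -0.04 without WT lithium male 5). Shank3, a master scaffold of the excitatory synapse, ran from 6709 to 8705 normalized counts in HT (median 7684) and from 7708 to 10050 in WT (median 8570), a difference of -0.15 ± 0.068. Shank1 was at -0.196 ± 0.099 and Dlgap2, which ties PSD-95 to the Shank proteins, at -0.128 ± 0.065. Tanc1, the paralog of Tanc2, differed by -0.076 ± 0.117, and Tnik and Mink1, kinases of the same family that bind Tanc proteins, by -0.01 ± 0.041 and -0.082 ± 0.051.

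Glutamate receptor genes lay on both sides. Of 29 such genes 4 lay higher and 1 lower at an unadjusted p under 0.05 (beside 6.05% and 5.14% of all genes), and their median was -0.017 (0.003 with the trends removed, 0.004 without HT lithium male 2). Grin2c, an NMDA receptor subunit, ran from 950 to 1342 normalized counts in HT (median 1153) and from 912 to 1589 in WT (median 1471), at -0.28 ± 0.079 (limma adjusted p = 0.155). Gria2, the AMPA receptor subunit that limits calcium entry, was at 0.11 ± 0.04, Grin3a at 0.17 ± 0.061 and Grik1, a kainate receptor subunit, at 0.16 ± 0.059. Of 15 genes for GABA-A receptors and their anchor gephyrin 10 lay higher (median 0.02, but -0.005 with the trends removed, -0.003 without HT lithium male 4 and 0.041 without HT lithium female 4), with Gabrd, a subunit of receptors outside the synapse, at -0.18 ± 0.075.

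Genes of release sites and ion channels had medians below 0, and 5.14% of all genes lay lower and 6.05% higher at an unadjusted p under 0.05. For presynaptic release 17 of 24 genes lay lower (median -0.03, with -0.007 without HT lithium male 2 and -0.054 without HT lithium male 4), with Unc13a, which primes vesicles, at -0.15 ± 0.06 and Bsn, a scaffold of the active zone, at -0.18 ± 0.08. Of 31 potassium channel genes 22 lay lower, 4 of them at an unadjusted p under 0.05 and 0 higher (median -0.05, and -0.027 without HT lithium female 4), among them Kcnc1, a channel of fast-spiking neurons, at -0.134 ± 0.05. Of 27 sodium, calcium and HCN channel genes 19 lay lower, 3 unadjusted (median -0.037, with -0.02 without HT lithium female 4 and -0.061 without WT lithium male 2), with Hcn2, a pacemaker channel, at -0.16 ± 0.055. With the trends removed the 3 medians were -0.007, -0.024 and -0.024, and 1, 2 and 0 members lay lower at an unadjusted p under 0.05. Under vehicle the 3 medians were -0.043, -0.051 and -0.031, and under fluoxetine 0.006, -0.012 and -0.031.

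Of 16 genes for GSK3, inositol phosphatases and related enzymes 12 lay lower, with a median of -0.008 (-0.03 without HT lithium male 4 and -0.003 without HT lithium female 5). At an unadjusted p under 0.05, 2 lay lower and 0 higher, beside 5.14% and 6.05% of all genes. Gsk3a was at -0.008 ± 0.043, Impa1, an inositol monophosphatase, at -0.009 ± 0.034, and Gsk3b at 0.0 ± 0.042. Slc5a3, a sodium-coupled inositol transporter, was at -0.18 ± 0.09, with -0.38 in females and 0.018 in males. In the WNT and beta-catenin list 27 of 32 genes lay lower (median -0.047, and -0.018 with the trends removed). At an unadjusted p under 0.05, 2 lay lower and 1 higher, beside 5.14% and 6.05% of all genes. The 2 lower genes were Wnt10a, at -0.246 ± 0.09, and Tcf7l1, at -0.321 ± 0.127. With the trends removed 3 lay lower and 1 higher at that p. Ctnnb1, which encodes beta-catenin itself, lay higher. It ran from 16230 to 20560 normalized counts in HT (median 18820) and from 16530 to 19600 in WT (median 17130), and its log2 difference was 0.12 ± 0.038 (limma adjusted p = 0.195), or 0.113 with the trends removed.

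In the mTOR pathway 13 of 20 genes lay lower, 4 of them and 1 higher gene at an unadjusted p under 0.05 (beside 5.14% lower and 6.05% higher among all genes), with a median of -0.036. The median was -0.019, and 3 lay lower unadjusted, with the trends removed. Tsc2, part of the complex that restrains mTOR, ran from 2981 to 3321 normalized counts in HT (median 3150) and from 3110 to 3578 in WT (median 3386), at -0.088 ± 0.028. Tsc1, its partner, was at -0.084 ± 0.035, Sesn2, a sensor of leucine, at -0.19 ± 0.057, and Rptor, which defines mTOR complex 1, at -0.075 ± 0.033. Mtor itself was at -0.039. None passed by limma, the smallest adjusted p being 0.176 for Sesn2.

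Immediate early genes, which neurons switch on with activity, lay lower in 33 of 41 members under lithium, 9 of them and 0 higher genes at an unadjusted p under 0.05 (beside 5.14% lower and 6.05% higher among all genes). Their median was -0.11, with -0.12 in females and -0.13 in males, against 0.126 under vehicle and 0.122 under fluoxetine. The interaction with vehicle had a median of -0.222 and 11 of 41 members lower at an unadjusted p under 0.05, where 6.67% of all genes had such a p in either direction. Spry4, a feedback inhibitor of growth factor signalling, ran from 287 to 445 normalized counts in HT (median 338) and from 352 to 521 in WT (median 410), at -0.23 ± 0.064 (limma adjusted p = 0.155). Ier5 was at -0.24 ± 0.084, Gadd45b, which acts in DNA demethylation and stress, at -0.26 ± 0.10 and Nab2, a corepressor of EGR factors, at -0.155 ± 0.062. The list level, the mean log2 deviation of its members in a library, ran from -0.28 to 0.287 in HT (median -0.092) and from -0.106 to 0.228 in WT (median 0.075). HT lithium male 1 held the 0.287, and without it the median was -0.187, while without HT lithium male 2 it was -0.08. With the trends removed the median was -0.085, with 6 members lower unadjusted.

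Metabolic and stress lists gave small medians. Of 13 mitochondrially coded genes 13 lay higher (median 0.109), but 0 had an unadjusted p under 0.05, and the median was 0.03 after quantile normalization, 0.007 with the trends removed and 0.063 without HT lithium female 3. Their transcripts had a median GC content of 37.1%. Of 73 nuclear genes of oxidative phosphorylation 34 lay higher and 39 lower (median -0.002, with -0.037 without HT lithium female 4 and 0.016 without HT lithium female 1), with Uqcrb, a complex III subunit, at 0.14 ± 0.046. Of 78 genes of the cytosolic ribosome, many with retroposed copies, 54 lay higher and 5 did so at an unadjusted p under 0.05, beside 6.05% of all genes (median 0.035, and -0.002 without HT lithium female 4). Cholesterol synthesis stood at a median of -0.004 over 25 genes under lithium (-0.03 without WT lithium female 5 and 0.009 without WT lithium female 3), -0.118 under vehicle and 0.01 under fluoxetine. In the unfolded protein response list Pdia3, a protein disulfide isomerase, was at 0.12 ± 0.032, and 14 of 25 genes lay higher (median 0.006, but -0.008 with the trends removed, -0.004 without WT lithium female 2 and 0.029 without HT lithium male 1). Of 20 heat shock genes 13 lay lower (median -0.021, with -0.001 without HT lithium male 2 and -0.044 without HT lithium male 4), with Hspa1b, an inducible HSP70, at 125 to 310 normalized counts in HT and 144 to 439 in WT (-0.47 ± 0.159). Hspa1b has a near-identical neighbour, Hspa1a, and is uncertain.

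Interferon response genes lay higher in 28 of 31 members with a median of 0.094, yet 0 reached an unadjusted p under 0.05. Under vehicle the median was 0.182 and under fluoxetine 0.012. Their level ran from -0.404 to 0.604 in HT and from -0.388 to 0.477 in WT, so the groups covered nearly the same range. The median was 0.039 without HT lithium male 2, which was highest, and 0.196 without HT lithium male 4, which was lowest. Usp18, which shuts off interferon signalling, stood at 0.54 ± 0.28 and Ifit3b at 0.44 ± 0.225. Of 21 glucocorticoid response genes 16 lay lower (median -0.034, but 0.001 without WT lithium female 2), with Mertk, a receptor for dying cells, at -0.16 ± 0.058. Of 19 circadian clock genes 11 lay lower (median -0.028, but 0.01 without HT lithium male 3), with Nr1d1, a clock repressor, at -0.16 ± 0.071. The chromatin regulators linked to autism had a median of -0.009 over 28 genes (0.022 without HT lithium female 4), and Ahdc1 was at -0.23 ± 0.065 and Bcl11a at 0.14 ± 0.053.

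**Figure D5:**
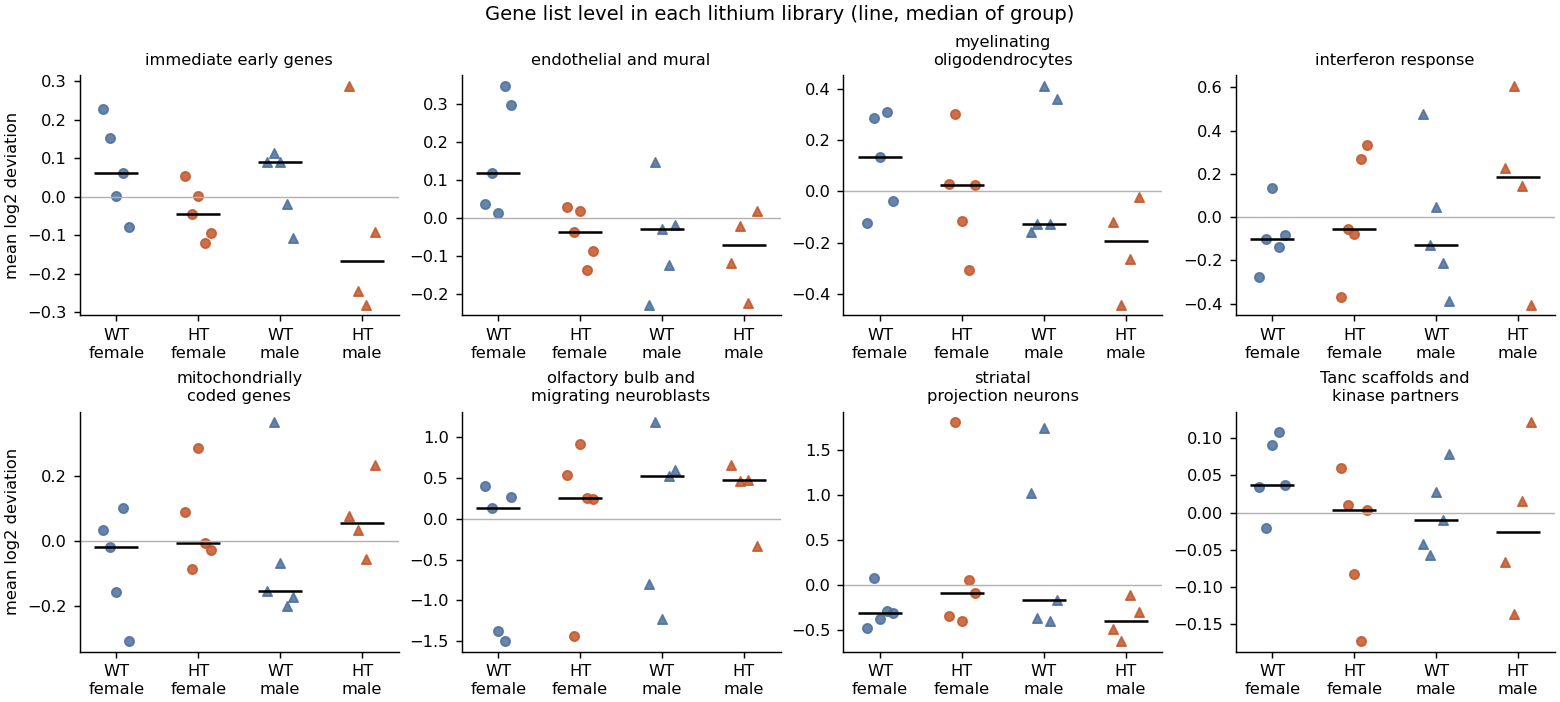
Level of 8 gene lists in each lithium library (vertical axis, mean log2 deviation of the members from their lithium mean), by genotype and sex (horizontal axis), with the group median as a line. Genotypes overlap in every panel, and the striatal and olfactory panels have libraries near 1.8 and -1.5.

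Markers of cell types were read to see which cells the tissue held. In bulk tissue fewer cells of a type and less RNA per cell cannot be told apart. Markers of endothelial and mural cells lay lower in 19 of 20 members, with 5 lower and 0 higher at an unadjusted p under 0.05 (beside 5.14% and 6.05% of all genes) and a median of -0.12. After removal of the trends 3 lay lower unadjusted and the median was -0.10. Under vehicle the median was -0.033 and under fluoxetine 0.128. In females 20 of 20 lay lower (median -0.19) and in males 14 of 20 (median -0.025). Flt1, a VEGF receptor, ran from 915 to 1872 normalized counts in HT (median 1383) and from 1312 to 2309 in WT (median 1496), at -0.23 ± 0.093. Sox18, a partner of Sox7 in endothelium, was at -0.28 ± 0.106, Slc2a1, the glucose transporter of brain vessels, at -0.19 ± 0.076, and Myh11, the myosin of smooth muscle, at -0.20 ± 0.095. The list level ran from -0.224 to 0.029 in HT (median -0.036) and from -0.228 to 0.346 in WT (median 0.025), with WT females 4 and 5 highest at 0.346 and 0.297. The part of this list in the values of Sox7 and Rasip1 was not tested.

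Of 24 markers of oligodendrocytes that make myelin 23 lay lower, with a median of -0.215, beside -0.228 under vehicle and 0.012 under fluoxetine, where 13 lay higher and 11 lower. Under lithium 1 was lower at an unadjusted p under 0.05 (beside 5.14% of all genes), and 0 with the trends removed. Their summed count ran from 91060 to 182600 in HT and from 116500 to 197600 in WT, and Mobp, a myelin protein, from 6557 to 17040 and from 9025 to 18580. Oligodendrocyte precursor markers lay lower in 11 of 12 (median -0.107), with Olig1 at -0.134 ± 0.065. Astrocyte markers lay higher in 7 and lower in 9 of 16, with a median of -0.017 (0.033 without WT lithium male 2 and -0.079 without HT lithium male 2). At an unadjusted p under 0.05, 3 lay lower and 0 higher, beside 5.14% and 6.05% of all genes. These 3 were Slc7a10, a serine and glycine transporter, at -0.17 ± 0.051, Ntsr2 at -0.17 ± 0.063 and Fgfr3 at -0.135 ± 0.053. Microglial markers had a median of -0.036 (-0.005 without HT lithium male 3 and -0.076 without HT lithium male 2), with Trem2 at -0.15 ± 0.071. Excitatory neuron markers by layer had a median of 0.022 (-0.021 without WT lithium male 2) and interneuron markers of 0.056, and Etv1, of layer 5, was at 0.18 ± 0.074.

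Markers of neighbouring tissue differed widely between libraries of both genotypes. Olfactory bulb and neuroblast markers lay higher in 16 of 18 members (median 0.302, and 0.194 without WT lithium male 3), at an unadjusted p under 0.05 in 0. Under vehicle the median was 0.336 and under fluoxetine -0.349. Their summed count ran from 18940 to 35980 in HT and from 19270 to 41680 in WT. Striatal markers had a median of 0.348 in females and -0.571 in males. Drd2, the dopamine receptor of striatal neurons, ran from 13.3 to 520 normalized counts in HT (median 37.7) and from 25.6 to 481 in WT (median 41.8), with HT lithium female 2 and WT lithium males 3 and 1 the libraries highest in the striatal list. Without HT lithium female 2 the striatal median was -0.269, and without WT lithium male 3 it was 0.04. Fibroblast, choroid plexus and red blood cell markers had medians of -0.065, -0.141 and -0.021 with 0 members at an unadjusted p under 0.05, and without WT lithium male 2, HT lithium male 4 and WT lithium female 3 in turn they were 0.01, 0.179 and 0.055. Aqp1 in choroid plexus ran from 8.38 to 110 in HT and 8.94 to 151 in WT. The part of these tissues in the gene values above was not tested.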

How the data were processed

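Bulk RNA of prefrontal cortex was measured in 58 mouse libraries, 19 of them lithium. The deposited table holds a signal, the authors' normalized counts, in which each library's reads are divided by its own size factor. DESeq2 1.19.11, R 3.6.0, Salmon 0.11.2 and the build GRCm38 were used, per the submitters' processing notes, while their options are not given in the sources used here. Values were whole multiples of 1 step per library (100% within 0.01), so whole numbers could be recovered, here called recovered reads. The step cannot tell whether these were reads or estimates rounded before the division. In 11 of 58 columns the step also lies too near 1 to tell them from rounded values. The GENCODE annotation for GRCm38 gave symbols, positions, GC content and length (medians over transcripts) for 18077 of 18088 genes.

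Here limma 3.58.1 (trend, log2(value + 1), a scale that understates changes of low genes) was fitted across all genes to all libraries together, each combination of genotype, drug and sex forming 1 of 12 groups, with Benjamini-Hochberg adjustment within each comparison, two-sided, threshold 0.05. EdgeR 4.0.16 (quasi-likelihood) and DESeq2 1.42.0 were run on the recovered reads, with R 4.3.3. Other alternatives were pseudocounts of 0.1 and 5, no filter, a mean of at least 50, quantile normalization, only the groups compared, the replicate block, each library left out and, chosen after seeing the data, removal of GC and length trends (splines with 4 degrees of freedom) alone, with the block, or without HT lithium female 4. The pipeline was tested on simulated data.

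Members and gene lists were chosen with earlier results of these data known. Named genes are Tanc2, up to 15 genes that pass in each direction, filled up to 10 with the smallest p where fewer pass (as here, where none did), with a mean of at least 30 normalized counts (unnamed gene models passed over), the 5 smallest p of each interaction and up to 4 members of each list with the smallest p. Gsk3a, Gsk3b, Impa1, Tanc1, Tnik, Mink1 and Mtor were added for their roles after values were seen, as were the genes that passed in females. A few members of the lists are not reported here.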

Additional observations from a re-analysis of the deposited data

Results flagged for a closer look

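Groups of 4 or 5 lithium libraries, 220 in all, covered the named genes and the gene lists. Of these, 11 held a library far from the rest by Dixon's criterion at 95%. Chance alone flags about 1 group in 20, which is about the share seen here. For Fam204a HT lithium female 5 stood at 393.0 normalized counts, against 352.9 to 360.6 in the other HT females. For Dars WT lithium female 3 stood at 1027, below 1173 to 1217 in the other WT females. Slc41a1 reached 2025 in WT lithium male 3, above 1764 to 1795 in the other WT males. Sox7 reached 86.73 in WT lithium male 2, above 45.21 to 54.26.

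Among gene lists, given as mean log2 deviation, WT lithium male 2 was low for presynaptic release (-0.134, others 0.02 to 0.066) and high for mitochondrially coded genes (0.366, others -0.198 to -0.066). WT lithium female 3 was high for potassium channels (0.068, others 0.016 to 0.03) and for sodium, calcium and HCN channels (0.075, others 0.004 to 0.02), and low for fibroblast and meningeal markers (-0.103, others 0.175 to 0.263). HT lithium female 2 was high for striatal neuron markers (1.81, others -0.398 to 0.056) and low for olfactory bulb and neuroblast markers (-1.439, others 0.238 to 0.921). Whether anything beyond chance set these libraries apart was not tested.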

How the results depend on the processing

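Of 21 single genes under 33 alternatives each, 618 values kept direction and side of the threshold, 74 newly passed it and 1 reversed. These alternatives include 1 sex alone, which is another comparison and not a change of processing. The reversal, Sox7 in males alone (0.256), is of that kind. Since 0 genes passed before, none of these genes could lose a call. Of the list values, 928 of 928 moved by less than the spread between libraries. That limit is wide beside many medians, so it does not show that they are stable. The choroid plexus median went from -0.141 to 0.179 without HT lithium male 4 (SD between libraries 0.501). The striatal median went from -0.088 to 0.04 without WT lithium male 3 (SD 0.735). For HT minus WT under lithium, against 0 genes, DESeq2 called 14 and the filter at a mean of 50 called 8, and leaving out 1 library gave 0 to 81. The fit on only the groups compared called 0 there, with a smallest limma adjusted p of 0.484 in place of 0.0697. In females, against 3, edgeR called 1, DESeq2 10, the fit on only the groups compared 0, trends removed 1, trends removed with the replicate block 1, trends removed without HT lithium female 4 0, and leaving out 1 library 0 to 7. DESeq2 called 4 genes in males, 6 for females minus males, 4 for lithium minus vehicle and 3 for lithium minus fluoxetine, against 0 in each. Leaving out 1 library gave 0 to 1 for females minus males, 0 to 1 for lithium minus fluoxetine, and 0 in males and for lithium minus vehicle. The causes were not tested, other than that the mean filter tests fewer genes.

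Same-numbered HT and WT libraries did not deviate together (correlations of -0.142 to 0.1, with 2 of 9 correlating best with their own number). This gave no sign that the numbers pair mice, but it cannot exclude it, and the labels give no litters. With the replicate block limma called 0 genes under lithium and 2 in females, and Tanc2 stood at 0.09. The Tanc2 difference ran from 0.063 to 0.127 when 1 library was left out. Between 24210000 and 30180000 reads per lithium library limit what low genes can show.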
